A study of Mus musculus with 9 samples.

Results

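CT26, a mouse line labelled as a colorectal carcinoma, was examined here through 9 genes that mark epithelial or mesenchymal identity: the keratins Krt7, Krt8, Krt18, Krt19 and Krt20, the adhesion proteins Epcam, Cdh1 (E-cadherin) and Cdh2 (N-cadherin), and the filament protein vimentin (Vim). They were picked out by gene symbol, with earlier results of these data known, and all 9 are among the 53796 genes of the deposited table. All 3 groups are polyclones of CT26 that lack their own Pd-l1, the ligand of the T cell receptor PD-1, grown in RPMI medium with FBS. Each received a retrovirus and puromycin: a control vector in the group called KO, wild-type mouse Pd-l1 in WT, and in K262Q the mutant of that name, with glutamine for lysine. Each group has 3 samples. Separate cultures are not stated, and p-values therefore speak only of the spread among the samples sequenced, which may be technical. Values are FPKM, fragments normalised to transcript length and library size, so that levels can also be set side by side between genes. The targeted gene Cd274 (Pd-l1) was at 0.357 to 0.982 FPKM in KO and at 35.4 to 41.3 FPKM in the other libraries. This level separates KO from WT and K262Q, but WT and K262Q overlapped, so it cannot check which of those is which.

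Epithelial cells of gut and other simple epithelia are built on keratin filaments, in which a type II chain such as Krt8 or Krt7 pairs with a type I chain such as Krt18, Krt19 or Krt20, and on junctions held by E-cadherin and Epcam. Mesenchymal cells carry vimentin filaments, which form from vimentin alone, and often N-cadherin. The exchange of the first set for the second is the textbook sign of an epithelial to mesenchymal transition, in which repressors of the Snail and Zeb families bind the E-box CAGGTG in promoters of epithelial genes.

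The 9 genes fell into a set that was plainly transcribed and a set that was nearly silent. Vim was by far the highest, with a mean of 3090 FPKM over the 9 libraries. It ranked 8th of 46878 gene models of 200 nt or more and took 0.601% to 0.675% of their summed FPKM. Krt18 followed at 30.9 FPKM, then Cdh2 at 22.9 FPKM and Krt20 at 12.7 FPKM. Krt7 had a mean of 0.692 FPKM and Krt8 of 0.0760 FPKM. Krt19 and Epcam were above 0 in 1 library each, and Cdh1 was listed at 0 in all 9. Vim exceeded Krt18, Krt18 exceeded Cdh2, Cdh2 exceeded Krt20 and Krt20 exceeded Krt7 in 9 of 9 libraries, and Krt7 exceeded Krt8 in 8 of 9. The order of Krt19, Epcam and Cdh1 rests on single libraries. Of the 7 epithelial genes only Krt18 and Krt20 reached a mean of 1 FPKM, the level required for testing, as did both mesenchymal genes, Vim and Cdh2, so 4 of the 9 were tested between groups.

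**Figure D1:**
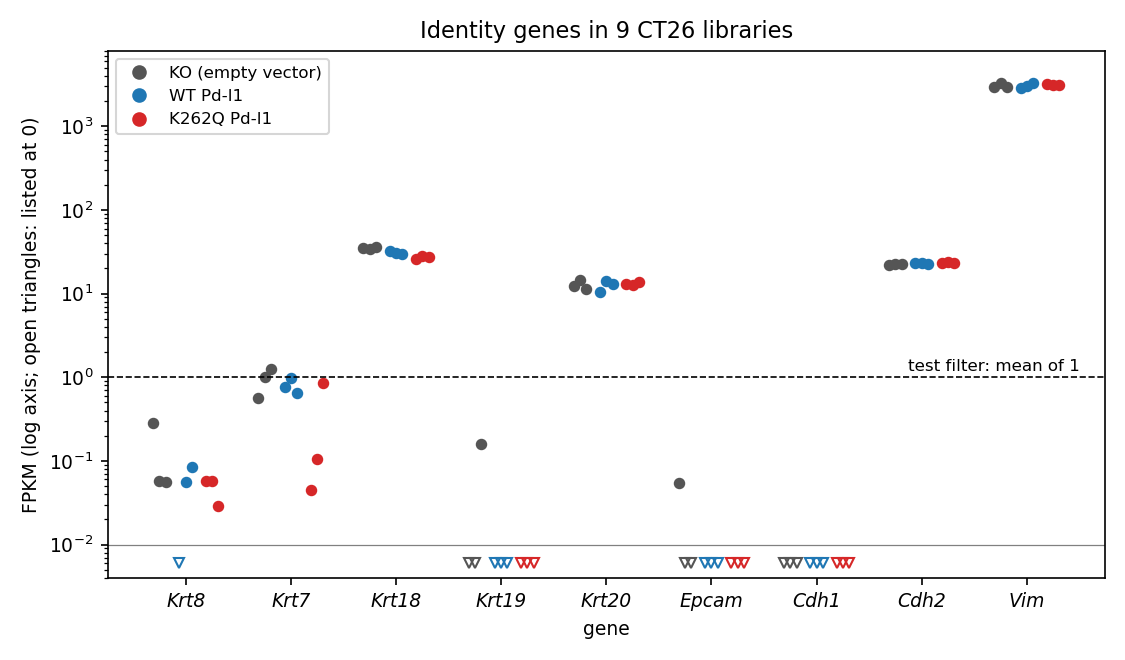
FPKM on a log axis of the 9 genes in each of the 9 libraries, with KO in grey, WT in blue and K262Q in red; open triangles stand for libraries in which a gene was listed at 0, and the dashed line marks the mean of 1 FPKM needed for testing. Vim lies near 3090 FPKM in every group, Krt18, Cdh2 and Krt20 lie between 10 and 36 FPKM, and Krt8, Krt19, Epcam and Cdh1 stay below 0.3 FPKM.

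The 250 bases before the RefSeq transcription start (GRCm38.p6) were searched on both strands for the E-box CAGGTG, whose reverse complement is CACCTG. Of the 9 genes, 6 matched an entry of the promoter table, and Krt19, Cdh1 and Cdh2 did not. Results are given here for 5 of the 6, so no count over the members is drawn from them. The E-boxes of Krt7, Krt18 and Epcam are given with 12 bases on either side, 5′ to 3′ on the strand of the gene, the E-box in capitals, shown as the kind of site such repressors are known to bind.
Krt7 E-box at -44: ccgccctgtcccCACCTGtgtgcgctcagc
Krt18 E-box at -214: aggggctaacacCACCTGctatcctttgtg
Epcam E-box at -187: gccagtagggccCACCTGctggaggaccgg
Epcam E-box at -19: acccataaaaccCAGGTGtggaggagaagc

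The site of Krt7 (chr15:101412347-101412376, plus strand) starts at -44 from the transcription start and that of Krt18 (chr15:102027990-102028019, plus strand) at -214. Epcam has a pair, at -187 (chr17:87635780-87635809) and -19 (chr17:87635948-87635977), both on the plus strand. No match was found before Krt20 or Vim. Of all 32851 promoter entries, 17.2% hold the motif in the same 250 bases. Some GENCODE transcripts of Krt7, Krt18 and Vim start further upstream than the RefSeq start used here. CpG dinucleotides, the sites of DNA methylation in promoters, numbered 16 in the 250 bases before Krt7, 12 before Krt18, 8 each before Epcam and Vim and 5 before Krt20, against a median of 6 over all entries. A count of 12 or fewer was found in 68.5% of entries. These are descriptions of sequence, and neither binding nor methylation was measured here.

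The type I keratin Krt18 (ENSMUSG00000023043; chromosome 15, 102028180 to 102032027, GRCm38, plus strand) was the one member whose level differed between groups by the test. Replicates 1, 2 and 3 of KO stood at 34.9, 34.3 and 35.7 FPKM, those of WT at 32.6, 30.2 and 29.6 FPKM and those of K262Q at 26.1, 27.9 and 27.1 FPKM. The KO libraries were the highest, WT lay between and K262Q was lowest, and no library of a group overlapped with another group. Between K262Q and KO, 26.9% of all tested genes did not overlap, 11.9% lower and 15.0% higher in K262Q. The share was 35.4% between K262Q and WT and 9.23% between WT and KO. In bulk RNA, fewer cells with a transcript and less of it per cell cannot be told apart. Group means were 34.9 ± 0.713 FPKM in KO, 30.8 ± 1.60 in WT and 27.0 ± 0.904 in K262Q (SD, n = 3).

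Against KO, Krt18 fell 1.28-fold in K262Q, a log2 difference of -0.36 ± 0.05 on the FPKM + 1 scale (SE; limma, Benjamini-Hochberg adjusted p = 0.0360), with a 95% interval of -0.47 to -0.25. In that comparison 154 of 12212 tested genes were called, 1.26% of them; 66 were lower in K262Q (0.540%), 88 higher (0.721%), and 22.0% had an unadjusted p under 0.05. Krt18 was thus 1 called member of 4 tested. The call was not secure: with 1 library left out at a time it held in 2 of 9 fits, those without KO replicate 2 and without WT replicate 1, with adjusted p from 0.0163 to 0.110. The lost calls include the fits without WT replicate 2 or 3, which take no part in the contrast itself and enter through the shared spread. With the replicate number as a block the adjusted p was 0.0805, and with the KO and K262Q samples alone it was 0.0996. The difference kept its sign in every one of these fits.

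Between K262Q and WT, Krt18 was 1.13-fold lower, a log2 difference of -0.18 ± 0.05 (SE; limma, adjusted p = 0.0582; 95% interval -0.29 to -0.07), and did not pass. Here 1145 genes were called, 9.38% of those tested (6.35% higher and 3.02% lower in K262Q), and 0 of the 4 tested members; at an unadjusted p under 0.05 it was 27.9% of genes and, of the members, Krt18. The non-overlap of Krt18 is shared with 35.4% of tested genes; 13.4% were lower in K262Q in this way and 22.0% higher. This result depended on scaling. Krt18 passed after upper-quartile scaling (log2 difference -0.25, limma adjusted p = 0.0365), after TMM scaling (-0.21, adjusted p = 0.0424) and after scaling to the total of gene models of 200 nt or more (-0.27, adjusted p = 0.0334). It also passed where genes under a mean of 5 FPKM were left out (adjusted p = 0.0478). Models of 200 nt or more summed to 467425 to 483010 FPKM over the WT libraries and to 495637 to 513248 over those of K262Q. The part of this in the result was not tested beyond these scalings.

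Between WT and KO, Krt18 was 1.13-fold lower in WT, with a log2 difference of -0.18 ± 0.05 (SE; limma, adjusted p = 0.854; 95% interval -0.29 to -0.07, unadjusted p = 0.00684). In this comparison 10 genes were called, 0.0819% of those tested (0.0491% higher and 0.0328% lower in WT), with 0 of the 4 members, and 686 genes had an unadjusted p under 0.05, 5.62%. Krt18 libraries did not overlap, as in 9.23% of tested genes, of which the lower side holds 6.48% of those tested and the higher side 2.75%. The 3 comparisons share groups, so the 3 differences of Krt18 are not independent of each other.

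**Figure D2:**
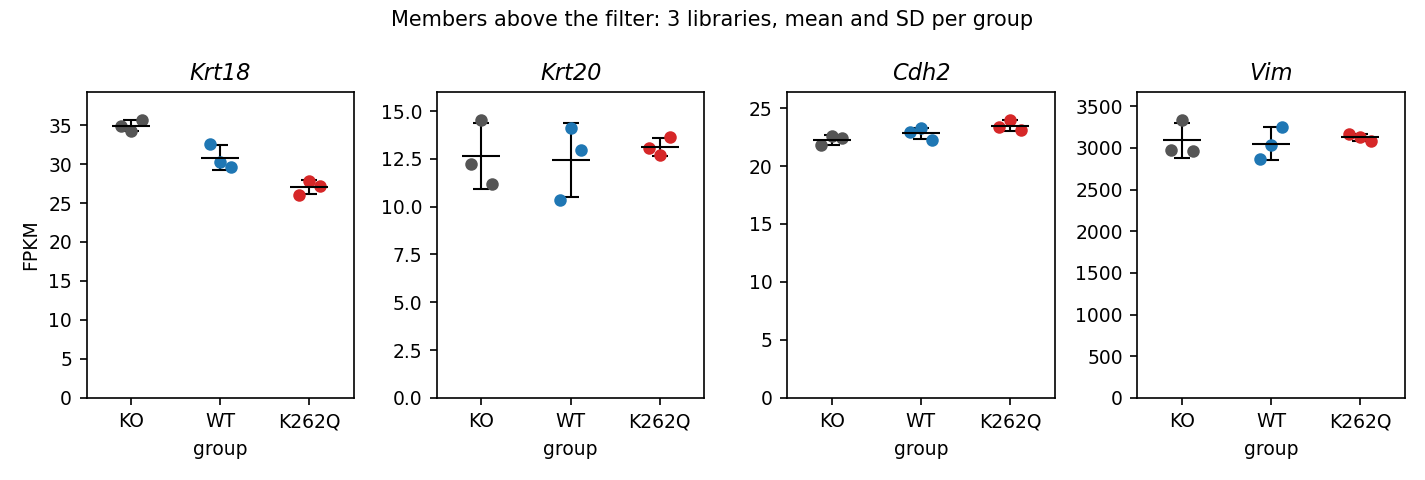
FPKM of the 4 members above the filter in KO, WT and K262Q, with 1 point per library and bars for the mean and SD of 3 libraries; axes start at 0. Krt18 steps from 34.9 through 30.8 to 27.0 FPKM without overlap, while the groups of Krt20 and Vim overlap throughout.

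Measured against other members in the same library, where library scaling cancels, Krt18 was lowest in K262Q relative to Vim and to Cdh2. These ratios were chosen after the values were seen. Vim exceeded Krt18 85.3-, 97.4- and 83.1-fold in KO replicates 1, 2 and 3, 88.0-, 100.3- and 110.2-fold in WT, and 121-, 112- and 114-fold in K262Q. The K262Q ratios all lay above those of the other groups, and WT overlapped with KO. The ratio of Krt18 to Cdh2 was 1.57 ± 0.0454 in KO, 1.35 ± 0.0641 in WT and 1.15 ± 0.0312 in K262Q (SD, n = 3), with no overlap between any groups. Relative to Krt20 it was 2.80 ± 0.416 in KO, 2.53 ± 0.548 in WT and 2.06 ± 0.117 in K262Q (SD, n = 3), where K262Q overlapped with WT (exact two-sided permutation p = 0.2) but not with KO. Each non-overlapping ratio had an exact two-sided permutation p of 0.1, the smallest that 3 against 3 samples can give.

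Krt20 (ENSMUSG00000035775; chromosome 11, 99428403 to 99438150), a type I keratin typical of differentiated gut epithelium, was present in every library without a difference between groups past the threshold. Replicates 1, 2 and 3 stood at 12.2, 14.5 and 11.2 FPKM for KO, at 10.3, 14.1 and 13.0 for WT and at 13.1, 12.7 and 13.6 for K262Q. All groups overlapped, and the spread was wide in KO and WT (SD 1.71 and 1.93 FPKM) and narrow in K262Q (0.479 FPKM). The log2 difference of K262Q against WT was 0.08 ± 0.12 (SE; limma, adjusted p = 0.714), with a 95% interval of -0.20 to 0.36, so that changes up to 1.29-fold upward or to 0.868 of the WT level are within the interval.

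The type II partners were scarce. Krt7 (ENSMUSG00000023039; chromosome 15, 101411043 to 101430313), found in ductal and urothelial cells, stood at 0.567, 1.01 and 1.24 FPKM for KO replicates 1, 2 and 3, at 0.762, 0.984 and 0.652 for WT and at 0.0445, 0.106 and 0.857 for K262Q. K262Q replicates 1 and 2 were the lowest of all libraries, but replicate 3 lay within the range of WT. Its mean was below the filter. In the fit without a filter the log2 difference of K262Q against KO was -0.57 ± 0.24 (SE; limma, adjusted p = 0.383) and of K262Q against WT -0.48 ± 0.24 (adjusted p = 0.429). The annotated antisense gene Gm671 overlaps the start of Krt7 and strand is not given, so reads of either cannot be told apart there.

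Krt8 (ENSMUSG00000049382; chromosome 15, 101996698 to 102004482), the main type II keratin of simple epithelia, lies 23697 bases from Krt18. Its replicates 1, 2 and 3 stood at 0.286, 0.0580 and 0.0561 FPKM for KO, at 0, 0.0561 and 0.0845 for WT and at 0.0569, 0.0583 and 0.0291 for K262Q. From the spacing of low values in the table, the smallest common step for a transcript of its length was 0.0272 FPKM, so that the highest library stood at 10.5 such steps and the others at about 3 or fewer. At this depth no difference between groups was detectable for Krt8 (no-filter fit, limma adjusted p = 0.640 for K262Q against KO). The annotated non-coding gene Gm36026 overlaps the 5′ end of Krt8 on the opposite strand.

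Summed over the members, type II chains gave 0.101 to 1.30 FPKM and type I chains 39.1 to 48.8 FPKM per library. The ratio of type II to type I was 0.0225 ± 0.00478 in KO, 0.0195 ± 0.00344 in WT and 0.00946 ± 0.0107 in K262Q (SD, n = 3). It was lowest in K262Q replicates 1 and 2, at 0.00259 and 0.00406, while replicate 3 stood at 0.0217, inside the other groups. Groups overlapped in each comparison (exact two-sided permutation p = 0.3 between K262Q and WT, 0.5 between WT and KO, and 0.2 between K262Q and KO), in a design that cannot give a p under 0.1. Krt19 (ENSMUSG00000020911; chromosome 11, 100140810 to 100148665), a type I keratin of ductal and intestinal epithelium, was listed at 0 in 8 libraries and at 0.159 FPKM in KO replicate 3, which is 4.70 of its steps.

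Across both keratin clusters the same scarcity held for most genes. Of 54 keratin genes in the table, 27 on chromosome 15 and 27 on chromosome 11, only 4 reached a mean of 1 FPKM: Krt18, Krt20, Krt80 and Krt10. Another 23 were listed at 0 in every library, and the highest of the remaining 27 was Krt7. Krt80, a type II keratin, was the most abundant type II chain, at 25.2 ± 3.32 FPKM in KO, 27.9 ± 1.57 in WT and 23.9 ± 0.310 in K262Q (SD, n = 3). Its difference between K262Q and WT did not pass (log2 -0.21 ± 0.09, limma adjusted p = 0.176). Krt10, a type I keratin of the upper epidermis, had a mean of 6.98 FPKM. With Krt80 added to the type II and Krt10 to the type I chains, a choice made after the values were seen, the ratio was 0.483 ± 0.0734 in KO, 0.565 ± 0.0333 in WT and 0.521 ± 0.00551 in K262Q (SD, n = 3). The log2 difference of K262Q against KO then changed from -1.86 to 0.12 and that of WT against KO from -0.20 to 0.23. That of K262Q against WT changed from -1.66 to -0.11. There K262Q lay below WT without overlap (exact two-sided permutation p = 0.1, the smallest possible), while the groups overlapped in the other comparisons.

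**Figure D3:**
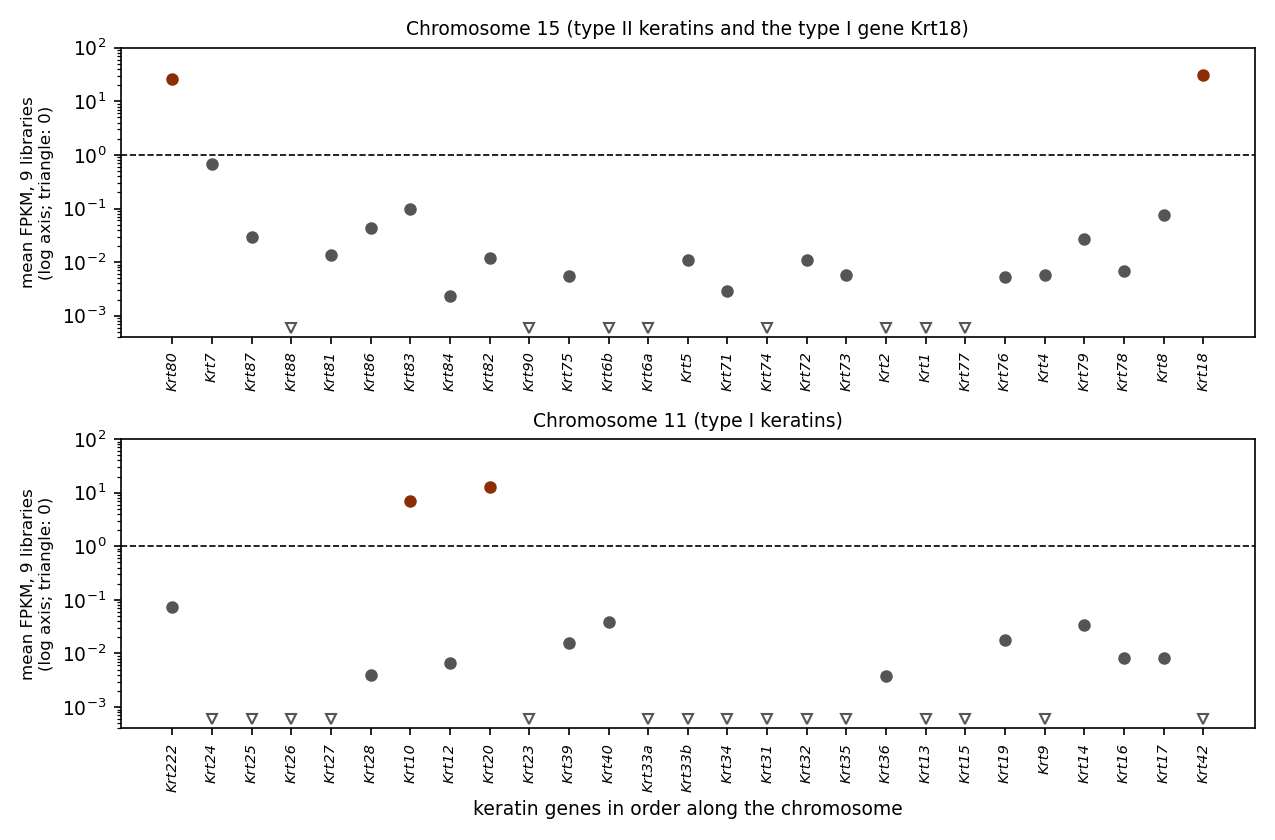
Mean FPKM over 9 libraries, on a log axis, of the keratin genes of chromosome 15 and chromosome 11 in their order along each chromosome; triangles stand for genes listed at 0 in every library and the dashed line marks 1 FPKM. Krt80 and Krt18 on chromosome 15 and Krt10 and Krt20 on chromosome 11 lie above the line, and Krt8, the neighbour of Krt18, lies below 0.1 FPKM.

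Among the adhesion genes, the cadherins were divided. Cdh1 (ENSMUSG00000000303; chromosome 8, 106603351 to 106670246), the cadherin of epithelial adherens junctions, was listed at 0 in all 9 libraries, where its smallest step would be 0.0120 FPKM. Epcam (ENSMUSG00000045394; chromosome 17, 87635979 to 87651129), a surface glycoprotein of epithelial cells, was listed at 0.0546 FPKM in KO replicate 1, or 2.09 steps, and at 0 in the other 8. That library also had the highest Krt8 value and the highest value of the desmosome gene Dsp, 0.151 FPKM, and the most genes above 0, 20472 against 19296 to 19684 in the others. Whether this library's breadth has a part in those values was not tested.

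N-cadherin, Cdh2 (ENSMUSG00000024304; chromosome 18, 16588877 to 16809246), which joins mesenchymal and neural cells, stood at 21.8, 22.6 and 22.4 FPKM for KO replicates 1, 2 and 3, at 22.9, 23.2 and 22.3 for WT and at 23.4, 24.0 and 23.1 for K262Q. K262Q lay above KO without overlap, as did 15.0% of tested genes (26.9% without overlap in either direction, 11.9% lower), while WT overlapped with both. The log2 difference of K262Q against KO was 0.07 ± 0.04 (SE; limma, adjusted p = 0.299) and did not pass. Its 95% interval, -0.01 to 0.16, allows a level from 0.991 to 1.12 times that of KO. Group means ran from 22.3 FPKM in KO to 23.5 FPKM in K262Q. Its difference between K262Q and WT, 0.04 on the log2 scale, changed sign under upper-quartile scaling (-0.03) and under scaling to the total of models of 200 nt or more (-0.05).

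Vimentin, Vim (ENSMUSG00000026728; chromosome 2, 13573927 to 13582826), stood at 2975, 3337 and 2966 FPKM for KO replicates 1, 2 and 3, at 2867, 3031 and 3256 for WT and at 3163, 3135 and 3083 for K262Q. The groups overlapped in every comparison, with means of 3093 ± 212, 3052 ± 195 and 3127 ± 40.6 FPKM (SD, n = 3). The log2 difference was 0.04 ± 0.06 for K262Q against WT (SE; limma, adjusted p = 0.742), -0.02 ± 0.06 for WT against KO (adjusted p = 0.994) and 0.02 ± 0.06 for K262Q against KO (adjusted p = 0.902). The 95% intervals reach from 0.894 to 1.13 times the reference level over the 3 comparisons. Each of these differences changed sign under at least 1 other scaling.

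**Figure D4:**
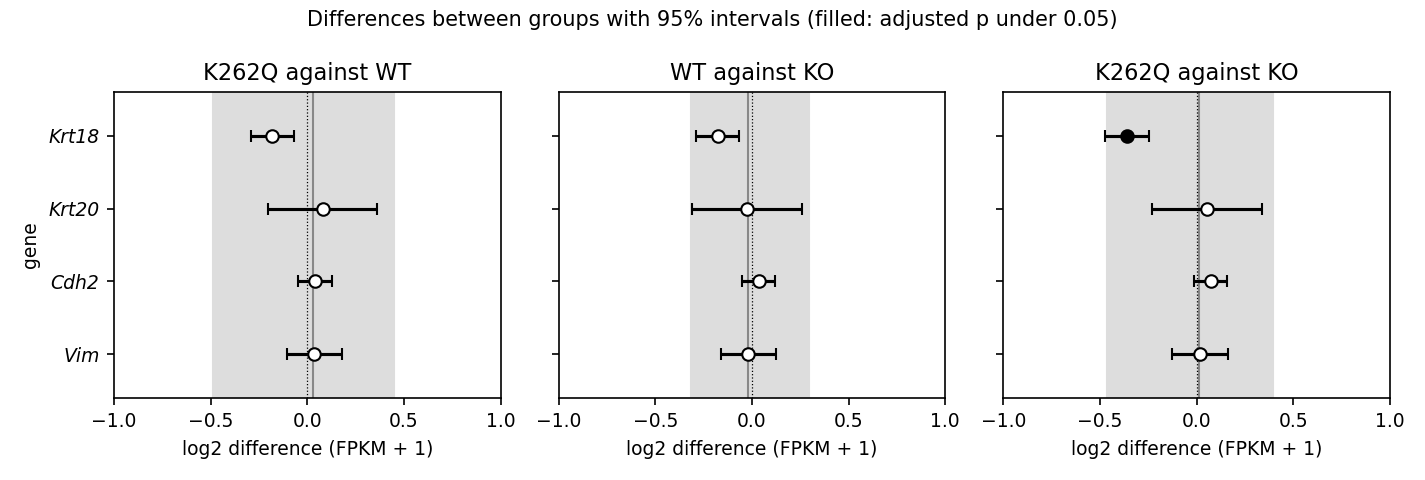
Log2 differences of the 4 tested members on the FPKM + 1 scale, with 95% intervals, for each of the 3 comparisons; filled points have a limma adjusted p under 0.05, the grey band spans the 5th to 95th percentile of all 12212 tested genes and the grey line is their median. Only Krt18 in K262Q against KO, at -0.36, is filled, and the points of Vim and Cdh2 lie near 0.

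By the naming rule, the tested genes most like Krt18 over the 9 libraries, by Pearson's r of log2(FPKM + 1), were Cask (r = 0.983), a scaffold protein of cell junctions and synapses, Hes7 (r = 0.954), a transcriptional repressor of the segmentation clock, and Mastl (r = 0.953), a mitotic kinase. For Vim they were Efna1 (r = 0.961), an ephrin ligand, Pkdcc (r = 0.947) and Sec23ip (r = 0.941). In all, 23 genes exceeded an r of 0.9 with Krt18 and 13 with Vim. The libraries share groups and scaling, so these are descriptions over 9 points.

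The other genes of adhesion and filaments gave a similar division into present and silent. Of 24 tight junction and desmosome genes, 6 were tested, led by the claudins Cldn6 at 172.9 FPKM and Cldn12 at 80.9 FPKM, while 7 were listed at 0 in every library, Cldn1, Cldn3 and Dsg2 among them. None of the 6 passed in any comparison. Of 19 epithelial regulators, 3 were tested, Klf5 at 19.5, Foxa1 at 13.6 and Grhl1 at 1.15 FPKM, and 0 passed. The splicing factor Esrp1 and the regulator Ovol2 were listed at 0 throughout. Among 10 other cadherins, Cdh13 at 15.2 FPKM and Cdh24 at 3.46 FPKM were tested and neither passed. Of all tested genes, 9.38% passed between K262Q and WT, 0.0819% between WT and KO and 1.26% between K262Q and KO. With so few genes tested in each list, 0 calls cannot be told from those shares.

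Of 10 catenins and cadherin anchors, 8 were tested, with the cadherin partners Ctnnb1 (beta-catenin) at 187.7 and Ctnna1 (alpha-catenin) at 137.6 FPKM the highest. Only Ctnnd1, the p120 catenin that holds cadherins at the membrane, passed: it rose 1.13-fold in K262Q against WT (55.6 ± 2.19 against 49.3 ± 1.03 FPKM; limma adjusted p = 0.0481) and lost that call under each of the 3 other scalings and, with 1 library left out, in all fits but that without KO replicate 2. In KO it stood at 55.0 ± 1.43 FPKM. Of all tested genes, 6.35% rose and 3.02% fell in K262Q against WT. The median log2 difference of the 8 was 0.03, the same as over all tested genes.

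Nuclear lamins led the intermediate filament genes beyond keratins and vimentin. Of 17 listed, 8 were tested, and in K262Q against WT 5 rose and 0 fell, beside 6.35% of all tested genes that rose. The list's median log2 difference was 0.27, against 0.03 over all tested genes. The nuclear lamins Lmnb1 (1.29-fold, 85.0 ± 2.23 against 65.8 ± 1.59 FPKM, limma adjusted p = 0.0338), Lmna (1.23-fold, adjusted p = 0.0360) and Lmnb2 (1.18-fold, adjusted p = 0.0362) rose, as did Nefm, a neurofilament chain (1.28-fold), and Plec, the plectin linker that binds vimentin and keratin filaments (1.26-fold). Against KO 0 of the 8 passed, beside 1.26% of all tested genes, although 5 lay above KO without overlap, as 15.0% of all tested genes did. All 5 stayed higher under the other scalings, where Lmnb1 and Plec kept an adjusted p under 0.05 in each and Nefm, Lmna and Lmnb2 lost it in at least 1. With 1 library left out each of the 5 kept its call in 2 of 9 fits, those without KO replicate 2 or 3.

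Mesenchymal structural genes were mostly present. Of 25 listed, 18 were tested, led by the galectin Lgals1 at 4712 FPKM and the calcium-binding protein S100a6 at 2677 FPKM, both of the order of Vim. In K262Q against WT 1 rose, the tropomyosin Tpm1 (1.13-fold, limma adjusted p = 0.0417, lost under the other scalings). Another 1 fell, fibronectin (Fn1, 72.6 ± 4.09 against 108.8 ± 5.04 FPKM). Of all tested genes, 6.35% rose and 3.02% fell there. The Fn1 call held in 5 of 9 fits with a library left out. It was lost without WT replicate 1 or 2 or K262Q replicate 2 or 3 (limma adjusted p up to 0.0627). Against KO Fn1 fell 1.44-fold (limma adjusted p = 0.0373), beside 0.540% of all tested genes that fell. It was the only gene of the list to pass, a call held in 1 of 9 fits with a library left out, that without KO replicate 2. Among its contractile genes, Acta2 was at 0.0496 and Tagln at 0.625 FPKM, while the actin-binding Cald1 was at 300.7, Tpm1 at 252.8 and Tpm2 at 17.7 FPKM.

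Of 12 mesenchymal regulators, which include the E-box repressors named above, 10 were tested. In K262Q against WT 2 rose, Twist2 (1.36-fold, limma adjusted p = 0.00522) and Prrx2, and 3 fell, Zeb2, Snai2 and Prrx1 (1.11-fold), beside 6.35% of all tested genes that rose and 3.02% that fell. With 1 library left out at a time, Twist2 and Prrx2 kept these calls in 9 of 9 fits, Zeb2 only without WT replicate 1, and Snai2 and Prrx1 only without KO replicate 2 or 3. Snai2 measured 38.5 ± 16.0, 44.4 ± 2.93 and 19.9 ± 1.36 FPKM in KO, WT and K262Q (SD, n = 3), with Cdh1, Epcam and Krt8 silent or nearly so in all of them. Against KO, Twist2 rose 1.32-fold and Prrx2 1.53-fold (limma adjusted p = 0.0145 for each). Of all tested genes, 0.721% rose and 0.540% fell in that comparison. The calls of Twist2 and Prrx2 held in 6 of 9 fits with a library left out. They were lost without KO replicate 1, K262Q replicate 2 or K262Q replicate 3 (limma adjusted p up to 0.0527 and 0.0717).

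Marker genes were read to see which cells the libraries could hold. Of 10 colon epithelial markers only Lgals4 was tested, at 1.04 FPKM, with Cdh17 at 0.928 and Cdx2 at 0.672 FPKM, and Lgr5, Tff3 and Car1 were listed at 0 throughout. Summed, they ranged from 2.13 to 3.18 FPKM over KO libraries, 2.45 to 3.21 over WT and 2.02 to 2.75 over K262Q. Of 8 immune markers Cd68 alone exceeded 1 FPKM, at 3.05 FPKM, and Ptprc, Cd3e and Csf1r were below 0.02 FPKM on average, with Adgre1 at 0. The 5 endothelial markers summed to at most 0.112 FPKM in any library. Among 8 fibroblast markers Col1a2 stood at 205.0 and Col1a1 at 7.06 FPKM, while Dcn, Lum and Thy1 were listed at 0. Their sum ranged from 221 to 233 FPKM over KO libraries, 216 to 236 over WT and 200.3 to 203 over K262Q. Most of this sum was Col1a2, which did not pass in K262Q against WT (limma adjusted p = 0.0748) or against KO (0.0822). The sum was lowest where Krt18 was lowest, and its part in that result was not tested.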

How the data were processed

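RNA of 9 samples in 3 groups of 3 was measured once per gene and sample. The deposited values are FPKM. Per the submitters' processing notes the authors used STAR 2.5.4a, Cufflinks 2.2.1, Cuffdiff and mm10; annotation and strand are not given in the sources used here. Columns were joined to samples by title and alias. Positions are from GENCODE M21 (GRCm38; 53616 genes matched), promoters from RefSeq; some promoter and marker results are not reported here. The members and lists were chosen with earlier results of these data known.

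Linear models with a mean-variance trend (limma 3.58.1, R 4.3.3) were fitted to log2(FPKM + 1) of all 9 samples for the 12212 genes whose mean reached 1 FPKM, with two-sided tests, Benjamini-Hochberg adjustment over all of them and a threshold of 0.05. The added 1 makes fold changes of low genes too small. The self-test on simulated K262Q against WT data with 12212 genes recovered 32.2% of genes changed 1.25-fold and 87.4% of those changed 2-fold, with 5.56% false among calls. That self-test changed only genes with a mean log2(FPKM + 1) above 2, and fewer per run than were called in the data. Recovery nearer the filter and in the other comparisons was not measured. Read counts are not in the table. Low values of models of 2500 nt or more with 1 transcript fell within 0.06 of a whole step in 66.0% to 69.9% of cases, which implied 18.3 to 19.4 M fragments per library (M, 1e6) if 1 step is 1 fragment and 9.16 to 9.72 M if it takes 2.

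Named were all members, Cd274, and per list up to 3 called genes with the smallest adjusted p per comparison and the 2 highest. The 3 genes most like Vim, Krt18 and any called member were also named. Nefm, Plec, Snai2, Prrx1, Cald1, Tpm2, list genes at 0 or low, Krt7's neighbours and markers were named after their values were seen. Alternatives were another pseudocount, filters, scalings, the 2 groups alone, a block for the replicate number, no trend and each library left out. Python 3.11.15, pandas 2.3.3, numpy 2.4.6 and matplotlib 3.10.9 were used.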

Additional observations from a re-analysis of the deposited data

How the results depend on the processing

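Krt18 was lower in K262Q than in KO under all 9 other settings (log2 difference -0.41 to -0.36) and passed in 6. The count of called members in K262Q against KO went from 1 to 0 with the 2 groups alone, with no trend and with the replicate block (Krt18 adjusted p 0.0996, 0.0518 and 0.0805), and it was 0 to 1 with 1 library left out. In K262Q against WT the count was 1 in place of 0, Krt18 in each case, with genes under a mean of 5 FPKM left out, with upper-quartile and TMM scaling and with scaling to models of 200 nt or more, the last added after the data were seen; with 1 library left out it stayed 0, with adjusted p of Krt18 from 0.0567 to 0.133. In WT against KO 0 members were called under every setting run.

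Unfiltered, 353, 18 and 55 genes were called in the order K262Q to WT, WT to KO, K262Q to KO. The last count was 234 with upper-quartile scaling, 297 with TMM, 246 with scaling to models of 200 nt or more, 10 with the 2 groups alone, 37 with no trend and 5 with the replicate block; WT against KO gave 6 with the block. With 1 library left out the counts ran from 29 (without K262Q replicate 2) to 1597 (without KO replicate 2), 9 to 18 and 13 (without K262Q replicate 3) to 1117 (without KO replicate 2). Of genes called in K262Q against WT, 776 were higher and 369 lower in the chosen fit, 404 and 527 with upper-quartile scaling, 608 and 456 with TMM and 347 and 629 with scaling to models of 200 nt or more. The cause was not tested.

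Differences that changed sign were all uncalled. In K262Q against WT, upper-quartile scaling gave Cdh2 -0.026 and Vim -0.031, and scaling to models of 200 nt or more gave Krt20 -0.0072, Cdh2 -0.050 and Vim -0.057. In WT against KO, upper-quartile scaling gave Krt20 0.0038 and Vim 0.011, TMM gave Vim 0.0045, and scaling to models of 200 nt or more gave Krt20 0.016 and Vim 0.023. In K262Q against KO, Vim was -0.020 and -0.033 with upper-quartile scaling and scaling to models of 200 nt or more. With 1 library left out, Krt20 ran from -0.040 to 0.17, -0.11 to 0.095 and -0.021 to 0.15 in the 3 comparisons, and Vim from -0.0070 to 0.085, -0.067 to 0.037 and -0.011 to 0.074.

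The log2 difference of the keratin ratio with Krt80 and Krt10 was -0.11, 0.23 and 0.12 in place of -1.66, -0.20 and -1.86. With 1 library left out, the ratio of the members alone ran from -2.58 to -1.04, -0.35 to -0.04 and -2.77 to -1.24. The ratio with Krt80 and Krt10 was not run in this way. Krt8 over Krt18 gave no value where WT enters, since WT replicate 1 listed Krt8 at 0.

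Same-numbered samples of different groups deviated together by r = -0.036 to 0.078 and others by -0.074 to 0.051, so the numbers were not taken as pairs; beside Krt18 the block changed no other member's call. Among list genes it ended the calls of Zeb2, Snai2, Prrx1, Lmna, Nefm, Plec and Ctnnd1 between K262Q and WT (limma adjusted p 0.0507 to 0.0891) and of Twist2 (0.0682), Prrx2 (0.0583) and Fn1 (0.0805) between K262Q and KO, where Prrx2 (0.0975) and Fn1 (0.114) also lost theirs with the 2 groups alone. Krt8, Krt19, Epcam and Cdh1 are limited by depth: none of their libraries stood above 10.5 steps. Krt7, also under 1 FPKM on average, reached 95.5 steps, counted on its longest annotated transcript of 4094 nt. It has 5 annotated transcripts, and a shorter one would give fewer steps.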
